A study of Mus musculus with 12 samples.

Results

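UPBIG and UPSMALL are the titles of 2 sorted populations of alveolar macrophages, the phagocytes that live in the air spaces of the lung, and they were compared here across all genes. The comparison takes the 8 libraries with these titles, 4 of each, out of 12 in the series. The other 4, titled DOWN, share one fit with them and serve below as a level beside both groups, with no test. All cells came from mouse bronchoalveolar lavage on day 14 after bleomycin, which damages lung tissue and serves as a model of fibrosis. The lavage was filtered by cell size into fractions rich and poor in border-associated alveolar macrophages. Cells were then sorted by side scatter, which rises with granularity, and by the neutral lipid dye BODIPY, into high, intermediate and low gates. The labels do not tie the titles to a fraction or gate and name no strain, sex, age or genotype, so the titles are used here only as names. Whether each replicate was a mouse of its own is not stated either, so a p-value here reflects no more than the variation among these libraries, part or all of which could be technical. All 18 macrophage markers examined passed the low-count filter over the 12 libraries. Some markers of other cells passed it too, so passing does not check the label of alveolar macrophage. The macrophage lysozyme Lyz2 stood at 109916 to 112200.4 CPM, counts scaled to a common library size, in UPBIG and 45576 to 108935 in UPSMALL, and the alveolar macrophage lectin Siglecf at 39.2 to 44.9 and 23.8 to 36.5.

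Alveolar macrophages take up surfactant, whose lipids they must store, break down or export. When sterol builds up in a macrophage, the transcription factor SREBP2, encoded by Srebf2, is held in the endoplasmic reticulum, and transcription of sterol synthesis and uptake genes falls. At the same time oxysterols activate the liver X receptors, which raise genes of sterol export. Fatty acids activate the receptor PPARγ, a factor that alveolar macrophages also need to mature. In the injured lung, macrophages that derive from blood monocytes enter the same space and gain the features of resident cells over time.

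The 8 libraries held 17109669 to 23282621 expected counts, and 12625 genes were tested. In UPBIG, transcripts of the mitochondrial chromosome took 4.05% to 5.19% of counts, against 2.68% to 3.43% in UPSMALL. The 50 most abundant genes took 51.5% to 52.2% and 39.2% to 49.2%. Neither measure overlapped between the groups (two-sided exact permutation p = 0.0286 each, the smallest that 4 against 4 allows, and 0.0571 adjusted over 4 measures), and the ranges of genes detected, 14856 to 16212 and 15876 to 17612, did. The TMM factors, which correct for a few abundant genes taking more of a library, lay at 0.858 to 0.896 in UPBIG and 0.992 to 1.17 in UPSMALL. With library totals alone, the median log2 fold change of all tested genes moved from -0.03 to -0.31. All changes below are therefore changes relative to the other genes. UPBIG replicate 1 and UPSMALL replicate 4 stood apart from their groups: on the first 2 principal components of the 8 libraries UPBIG replicate 1 lay at -54.9 and 51.1, with the other UPBIG libraries at -29.4 to -18.6 and -39.4 to -7.80. UPSMALL replicate 4 lay at 51.1 on the first component, with the others at 23.3 to 29.95, and held the lowest share in the 50 most abundant genes.

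In UPBIG 22 of 27 tested sterol synthesis genes and 10 of 18 MHC class II genes were lower, and so were the monocyte chemokine receptors Ccr2 and Cx3cr1. Some liver X receptor targets and sterol export genes (8 of 19) were higher, as were some genes of mitochondrial fatty acid oxidation (5 of 26). So were some of iron and heme (6 of 27) and of the lysosomal proton pump and its nutrient sensors (11 of 35, with 1 lower). With library totals alone the medians of these lists fell to between -0.01 and 0.13. Of the 12625 genes, 720 (5.70%) passed an adjusted p of 0.05 in edgeR's quasi-likelihood test. In UPBIG 406 of them (3.22% of all tested) were higher and 314 (2.49%) were lower. Counts of list members in the text stand beside these shares, and a count near them does not set a list apart. With library totals alone the calls became 189 higher and 1433 lower. Of the genes called lower 63 changed over 4-fold, of those called higher 28, and 160 of all calls changed by less than 1.5-fold. The 4 UPBIG libraries did not overlap the 4 UPSMALL libraries in 654 of the 720 called genes (90.8%), against 1492 of all tested genes (11.8%). Without the 2 libraries that stood apart, 563 genes were called, 320 higher and 243 lower, and 472 of the 720 were among them.

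**Figure D1:**
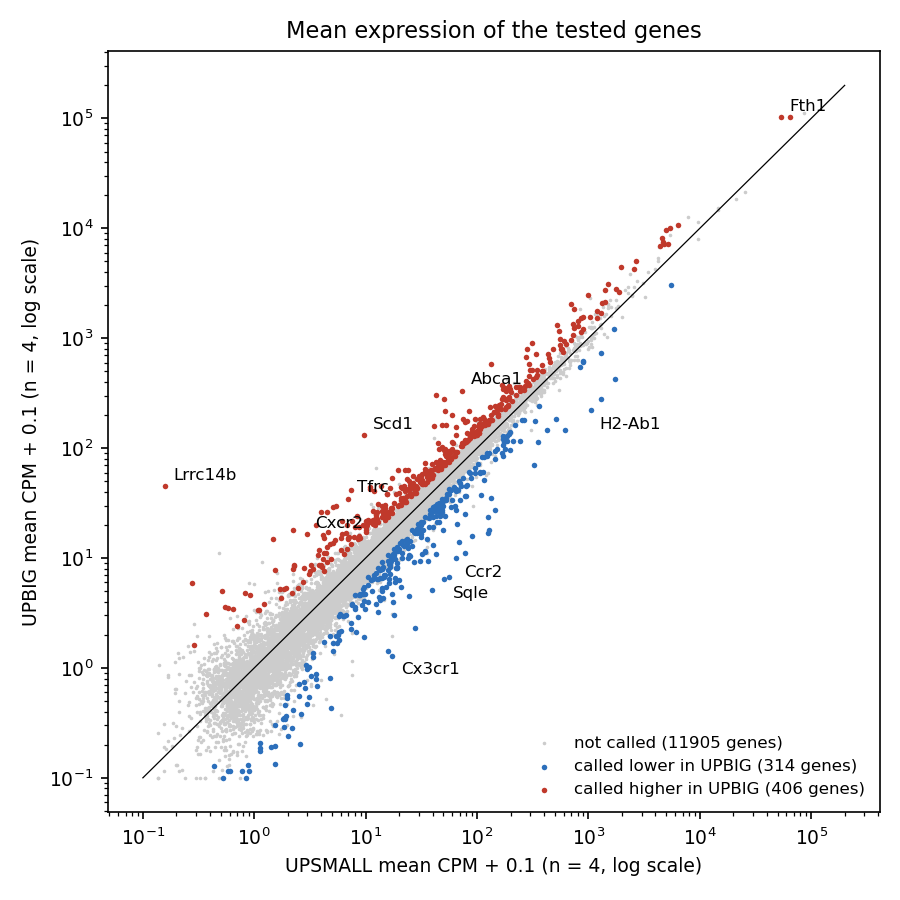
Mean CPM of each of the 12625 tested genes in the 4 UPSMALL libraries (x axis) and the 4 UPBIG libraries (y axis), both on log10 axes with 0.1 CPM added; each point is 1 gene, the 406 genes called higher in UPBIG are red, the 314 called lower are blue, and the diagonal marks equal means. Genes named on the plot are described in the text, and Lrrc14b stands alone at the upper left with 44.8 CPM in UPBIG and 0.0583 CPM in UPSMALL.

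The genes of the sterol synthesis list fell almost as a whole. Of 27 tested genes of this pathway 22 were lower and none was higher, with a median log2 fold change of -1.67 against -0.03 over all genes and 2.49% of all genes called lower. In 1 member all UPBIG libraries lay above all UPSMALL libraries. Without UPSMALL replicate 4, 1 member was called higher and 23 lower. The falls ran from the first steps of the pathway to the last. Hmgcs1, which makes the precursor of mevalonate, stood at 44.1, 43.4, 63.4 and 52.1 CPM in UPBIG replicates 1 to 4 and at 114, 97.5, 126 and 122 in UPSMALL (-1.18 ± 0.14 on the log2 scale (SE), adjusted p = 2.30e-05). Sqle, the squalene epoxidase that commits carbon to sterol, stood at 3.3, 5.38, 10.5 and 5.93 CPM against 55.6, 42.7, 53.1 and 51.7. Cyp51, the sterol demethylase after it, stood at 5.36, 10.3, 16.9 and 11.3 CPM against 77.9, 78.7, 73.7 and 79.6, a log2 fold change of -2.82 ± 0.23 (adjusted p = 8.37e-07). In each of these genes all UPBIG libraries lay below all UPSMALL libraries, and the highest UPBIG value was always that of replicate 3. Fdft1, which makes squalene, overlaps Ctsb on the other strand, and without strand information their reads cannot be told apart. The DOWN libraries stood near UPSMALL in these genes, with 55.8 ± 9.25 CPM of Sqle and 94.9 ± 10.4 of Cyp51.

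The fall took in control genes as well as enzymes. Srebf2 itself stood at 8.79, 8.07, 10.9 and 8.8 CPM against 32.1, 23.9, 26.6 and 25.6 (-1.56 ± 0.15, adjusted p = 1.92e-06), with no overlap. Insig1, which retains the SREBP2 complex and is also one of its targets, fell by 1.51 ± 0.29 on the log2 scale (adjusted p = 0.00301). It is also counted among the 22 genes of the sterol synthesis list that fell. Mylip, a ubiquitin ligase gene that liver X receptors raise, moved the other way, from 22.4 ± 2.46 CPM to 63.6 ± 10.7 (SD, n = 4; 1.5 ± 0.19, adjusted p = 4.05e-05). These were the 3 called members of a list of 21 SREBP and liver X receptor regulators. The SREBP1 gene Srebf1 (0.08 ± 0.20) and the SREBP escort Scap (0.07 ± 0.21) were not called, and both turned negative with library totals alone (-0.20 and -0.22), Srebf1 also without UPSMALL replicate 2 and Scap without UPBIG replicate 1 or UPSMALL replicate 1.

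The promoters of 3 of these genes are shown because they hold the same core of a sterol response element. Of the 22 sterol genes that fell, 15 had an entry in the RefSeq promoter table (GRCm38.p6), and 3 of the 15 held CACNCCAC on either strand within 250 bases before to 50 after the start, against 7.12% of all 27025 symbols with a promoter and 8.475% of genes called lower. Each line gives 220 bases, from 200 before the start on, 5′ to 3′ on the gene's strand, with matches in capitals. Hmgcs1 lies at chr13:119690151-119690370 on the plus strand, Acat2, which encodes an acetyl-CoA thiolase, at chr17:12960706-12960925 on the minus strand, and Insig1 at chr5:28071212-28071431 on the plus strand.
Hmgcs1: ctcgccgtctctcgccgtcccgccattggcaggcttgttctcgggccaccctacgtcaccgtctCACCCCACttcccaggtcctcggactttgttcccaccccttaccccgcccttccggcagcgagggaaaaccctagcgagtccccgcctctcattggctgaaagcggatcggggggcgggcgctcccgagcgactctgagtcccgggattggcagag
Acat2: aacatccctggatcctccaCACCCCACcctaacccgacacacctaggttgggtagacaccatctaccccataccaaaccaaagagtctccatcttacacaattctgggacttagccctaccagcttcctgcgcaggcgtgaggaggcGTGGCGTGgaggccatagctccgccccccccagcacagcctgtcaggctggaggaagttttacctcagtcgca
Insig1: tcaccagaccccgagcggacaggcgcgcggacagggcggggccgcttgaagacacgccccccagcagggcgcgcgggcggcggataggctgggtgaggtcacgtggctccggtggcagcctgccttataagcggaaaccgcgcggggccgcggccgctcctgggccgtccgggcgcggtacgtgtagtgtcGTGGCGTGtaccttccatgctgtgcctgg
The matches began 136 bases before the start in Hmgcs1, 181 and 53 before it in Acat2 and 9 before it in Insig1. They are matches of letters, not measured sites.

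Several sterol export genes rose. Of 19 tested targets of the liver X receptors and export genes, 8 were higher and none lower, with a median of 0.41 (0.13 with library totals alone) and 3.22% of all genes called higher. Abca1, the transporter that loads sterol onto apolipoprotein, stood at 380.1, 310.1, 320.5 and 325 CPM in UPBIG and 73.7, 80.6, 74.9 and 66.7 in UPSMALL, with no overlap (2.18 ± 0.17, adjusted p = 1.18e-07). Abcg1, which exports sterol to lipoprotein particles, stood at 779, 711, 876 and 816 CPM and 271, 245, 338 and 270.3 (1.5 ± 0.14). Scd1, the desaturase that makes monounsaturated fatty acid, rose 13.6-fold, from 8.87, 7.9, 10.1 and 11.8 CPM in the UPSMALL libraries to 147, 123, 135 and 121 in UPBIG (adjusted p = 3.32e-11, the smallest of all genes). Its paralog Scd2, at 64.2 ± 9.33 and 49.2 ± 5.63 CPM (SD, n = 4), was not called (0.38 ± 0.13, adjusted p = 0.101), and passed without UPBIG replicate 3 (0.47, adjusted p = 0.0477). Among lipid carriers, the apolipoprotein gene Apoc1 stood at 381, 273, 211 and 360.1 CPM against 39.7, 37.6, 41.8 and 51.8 and the phospholipid transfer protein Pltp at 327, 195, 182 and 167 against 60.7, 56.3, 52.3 and 37.5. Pltp was highest in UPBIG replicate 1. Apoe, the main macrophage apolipoprotein, was spread from 10619 to 22930 CPM in UPBIG and was not called (log2 fold change 0.06 ± 0.22, adjusted p = 0.937; negative with library totals alone, with limma-voom and without UPBIG replicate 1 or UPSMALL replicate 3). The liver X receptor gene Nr1h3 stood at 35.7 ± 3.6 and 29.1 ± 2.59 CPM and was not called either (adjusted p = 0.258). Gramd1b, a carrier of sterol from the plasma membrane to the endoplasmic reticulum, rose from 8.59 ± 1.91 CPM to 19.2 ± 2.52 (1.16 ± 0.20, adjusted p = 0.00112).

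**Figure D2:**
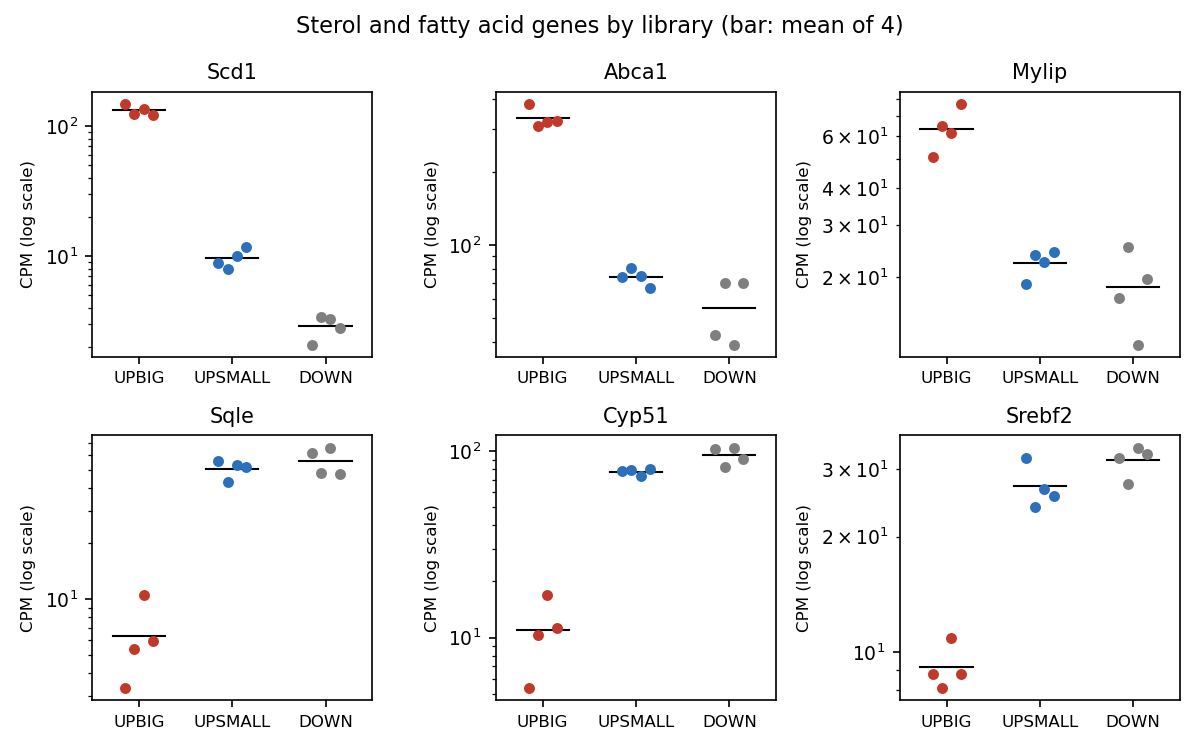
CPM of 6 sterol genes in each library (y axis, log10 scale, 1 panel per gene), with 4 points per group for UPBIG, UPSMALL and DOWN and a bar at the group mean. Scd1, Abca1 and Mylip lie higher and Sqle, Cyp51 and Srebf2 lower in all 4 UPBIG libraries than in any UPSMALL library.

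Several genes of fatty acid uptake, transport and burning were higher in UPBIG too. Of 23 tested PPAR targets of macrophages 9 were higher and none lower (median 0.51, and 0.23 with library totals alone). Cd36, the fatty acid translocase and scavenger receptor, stood at 544, 565, 732 and 510.3 CPM in UPBIG and 156, 167, 128 and 85.2 in UPSMALL (2.13 ± 0.22, adjusted p = 3.13e-05). The fatty acid carrier Fabp4 stood at 707, 934, 817 and 1131 CPM against 295, 311, 340.1 and 303 (1.52 ± 0.20). Neither gene overlapped between the groups, and for Cd36 the gap was wider than the range of either group. Pparg, the receptor gene, stood at 73.4 ± 3.0 and 60.9 ± 8.42 CPM (SD, n = 4) and was not called (adjusted p = 0.238), with a log2 fold change of 0.27 ± 0.12 that became -0.0041 with library totals alone. Pdk4, a kinase that turns the cell from glucose to fatty acid oxidation, stood at 14.1, 17.3, 8.38 and 19.5 CPM against 1.7, 1.45, 1.47 and 0.918 (3.43 ± 0.39, adjusted p = 1.35e-05), and at 0.0894 ± 0.116 CPM in DOWN.

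In the mitochondrial oxidation list 5 of 26 tested genes were higher and none lower, and the median was 0.29, or 0.02 with library totals alone. They were Acadl, which takes long-chain acyl-CoA through the first step of the spiral, both subunits of the trifunctional protein, Hadha and Hadhb, the thiolase Acaa2 and the carnitine acetyltransferase Crat. Acadl rose from 65.2 ± 6.51 CPM to 156 ± 12.5 (SD, n = 4; 1.26 ± 0.11, adjusted p = 4.72e-07) and Hadhb by 0.92 ± 0.13 on the log2 scale. The call of Hadha ended without UPBIG replicate 1 or UPSMALL replicate 4 (adjusted p = 0.0560 to 0.0741), and those of Hadha and Crat ended with library totals alone. Cpt1a, the entry step, stood at 87.2 ± 6.91 and 79 ± 6.27 CPM (adjusted p = 0.531; 0.14 ± 0.10, and -0.13 with library totals alone). Of 21 tested thioesterases and acyl-CoA synthetases 2 were higher, against 3.22% of all genes. They were the near-identical pair Acot1 and Acot2, whose reads may be shared. Acot1 stood at 30.6, 27.6, 17.6 and 29 CPM against 5.74, 2.7, 4.32 and 4.85. Dbi, an acyl-CoA binding protein gene, fell by 0.64 ± 0.14, and passed in each fit that left out 1 library but not without both libraries that stood apart (-0.50, adjusted p = 0.0636).

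Peroxisomes shorten very long fatty acids. Of 47 tested members 6 were higher and none lower, among them catalase, Cat (0.53 ± 0.11), but the median of 0.14 became -0.13 with library totals alone, under which 1 was higher and 5 lower. Without the 2 libraries that stood apart 1 was higher, and the call of Cat ended with library totals alone. Fatty acid synthesis did not move as one: Scd1 was the only riser among 24 tested members, and Fasn, the fatty acid synthase, the citrate carrier Slc25a1 and the elongation enzyme Hsd17b12 fell. Fasn stood at 16.9, 11.9, 14.8 and 13.7 CPM against 31.2, 17.4, 21.4 and 26 (-0.75 ± 0.18), and did not pass once UPBIG replicate 2 or UPSMALL replicate 1 was left out (adjusted p = 0.0662 to 0.0715). The call of Slc25a1 ended without any of UPBIG replicates 2 to 4 and UPSMALL replicates 1 to 3 (0.0554 to 0.0858), and that of Hsd17b12 without any library but UPBIG replicate 1 (0.0510 to 0.141).

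Lipid storage genes gave a mixed picture. Of 29 tested genes of neutral lipid storage and release 5 were higher and none lower (median 0.25, and -0.02 with library totals alone). Plin2, which coats lipid droplets, stood at 1257, 1373, 1002 and 1058 CPM in UPBIG and 587, 676, 516 and 394 in UPSMALL (1.11 ± 0.14, adjusted p = 5.46e-05). Cidec, which fuses droplets, stood at 19.2, 8.79, 10.2 and 12.2 CPM and 16.4, 7.35, 10.8 and 6.87, so its groups overlapped (adjusted p = 0.754; 0.29 ± 0.35, and -0.15 without the 2 libraries that stood apart). Mgll, the lipase that completes the breakdown of triglyceride, stood at 162, 189.8, 143 and 149 CPM against 58.9, 46.1, 53.3 and 36.9 (1.72 ± 0.15, adjusted p = 4.72e-07). Awat1, an enzyme that joins fatty acid to long-chain alcohol to make wax esters, rose from 3.86 ± 1.9 CPM to 26.3 ± 6.35 (SD, n = 4; 2.76 ± 0.33). Genes of membrane lipid split: of 46 tested 6 were higher and 4 lower. The median of 0.06 became -0.22 with library totals alone, where 3 were higher and 8 lower. Chpt1, which makes phosphatidylcholine, rose by 1.11 ± 0.13, and Pcyt2, the rate-limiting step to phosphatidylethanolamine, fell from 24.7 ± 3.75 CPM to 10.4 ± 1.58 (-1.25 ± 0.18, adjusted p = 0.000194). The secreted phospholipase gene Pla2g2d stood at 19.6, 12.4, 15.1 and 24 CPM against 3.35, 2.5, 1.38 and 1.25, and Plpp3, a lipid phosphate phosphatase of the cell surface, at 48.6, 44.2, 51.1 and 36.8 against 18.2, 15.8, 10.2 and 9.95.

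The iron genes that rose covered its uptake, storage and export. Of 27 tested iron and heme genes 6 were higher and none lower; 6 were also called with library totals alone, although the median of 0.26 became -0.01 there. Tfrc, the transferrin receptor that brings iron in, stood at 18.3, 55.2, 34.6 and 30.0 CPM in UPBIG and 8.66, 6.2, 8.59 and 4.11 in UPSMALL (2.33 ± 0.29, adjusted p = 4.18e-05), and Slc40a1, ferroportin, the exporter, at 36.1, 27, 20.1 and 32.5 against 3.88, 6.0, 7.56 and 2.72 (2.52 ± 0.40, adjusted p = 0.00129). The genes of uptake and export both stood higher, with UPBIG replicate 2 highest for Tfrc and replicate 1 for Slc40a1. The ferritin heavy chain Fth1, which stores iron, took 102835 ± 8371 CPM in UPBIG and 53995 ± 9099 in UPSMALL (SD, n = 4; 0.93 ± 0.15, adjusted p = 0.000594). UPSMALL replicate 4 was lowest, at 40560 CPM, and ferritin pseudogenes may share these reads. Ncoa4, which carries ferritin to the lysosome, rose by 0.72 ± 0.09 and the lysosomal metal transporter Slc11a1 by 0.93 ± 0.19. The heme oxygenase gene Hmox1 was not called (0.33 ± 0.15, adjusted p = 0.257).

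Of 37 tested antioxidant genes under the factor NRF2 7 were higher and none lower, and the median was 0.20, or -0.07 with library totals alone (3 higher and 5 lower there). The glutathione transferase Gstm1 stood at 1629, 2032, 1976 and 2516 CPM against 763, 812, 782 and 412 (1.56 ± 0.23, adjusted p = 0.000757), and Txn1, thioredoxin, at 2830.2, 2799, 2563 and 2741 against 1634, 1286, 1255 and 1415 (0.97 ± 0.11). Gclm, a subunit of the enzyme that limits glutathione synthesis and a common readout of NRF2, stood at 27.3 ± 5.54 and 38 ± 10.6 CPM and was not called (-0.48 ± 0.19, adjusted p = 0.174, but adjusted p = 0.0179 with library totals alone).

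Nearly all changes among genes of lysosomal acidification and nutrient sensing were rises. Of 35 tested genes of the proton pump and its signalling partners 11 were higher and 1 lower (median 0.32, and 0.05 with library totals alone, where 4 were higher and 1 lower). Rragd, a GTPase that recruits the growth kinase mTORC1 to lysosomes, stood at 24.4, 23.4, 19.8 and 18.6 CPM in UPBIG and 6.11, 7.85, 6.41 and 3.78 in UPSMALL (1.84 ± 0.23, adjusted p = 3.93e-05). Its partner Rragc rose by 0.51 ± 0.10, but not with library totals alone (0.23, adjusted p = 0.177). The pump subunit Atp6v1c1 stood at 346, 350.4, 355 and 342 CPM against 196, 226, 208 and 153, with a wider spread in UPSMALL. Mitf, a transcription factor of lysosomal genes, was the member that fell, from 28.9 ± 3.69 CPM to 18.2 ± 3.33 (SD, n = 4; -0.67 ± 0.17), and its call ended without UPBIG replicate 1, 2 or 4 or UPSMALL replicate 4 (adjusted p = 0.0507 to 0.0750). Of 33 tested proteins of the lysosome membrane 6 were higher and none lower. Mcoln3, a calcium channel of endosomes, stood at 164, 184, 185 and 170.0 CPM against 84.2, 87.6, 85.8 and 64 (1.13 ± 0.12, adjusted p = 3.22e-06), and Scarb2, which carries a hydrolase to lysosomes, rose by 0.87 ± 0.10.

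Of 50 tested hydrolases 13 were higher and 2 lower, with a median of 0.22 that turned to -0.06 with library totals alone (3 higher and 6 lower there). Without the 2 libraries that stood apart 7 were higher and 1 lower. The collagen-cleaving protease gene Ctsk stood at 1249 ± 97.2 against 739 ± 90.2 CPM (SD, n = 4; 0.76 ± 0.11). The 2 that fell were the sulfatase Arsb and the protease Ctsc, at -0.64 ± 0.16 and -0.54 ± 0.14. The Arsb call ended without UPBIG replicate 1 or UPSMALL replicate 4 (adjusted p = 0.0513 to 0.0722), and the Ctsc call without any of UPBIG replicates 1, 2 and 4 and UPSMALL replicates 2 and 3 (0.0515 to 0.0789). The palindrome CACGTG, which lysosomal regulators of the TFE family bind, was in the promoters of 3 of 7 pump and sensing genes and 4 of 10 hydrolases that rose and had an entry. It was in 12.1% of all tested genes with a promoter and 15.9% of those called higher. Of the genes that fell and had an entry, 3 of 15 in sterol synthesis and 0 of 6 in MHC class II held it.

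**Figure D3:**
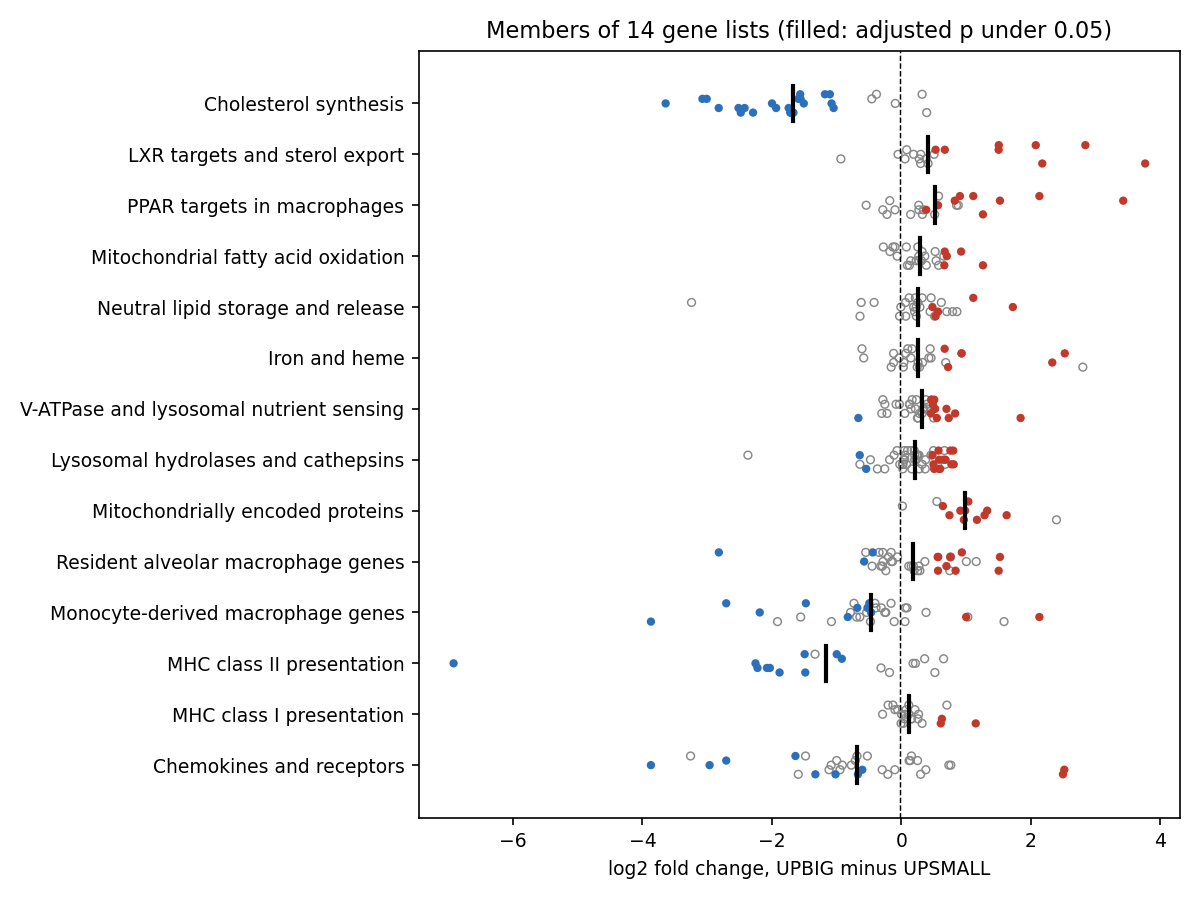
Log2 fold change, UPBIG minus UPSMALL, of each tested member (points) in 14 gene lists (rows), with filled points for members called at an adjusted p of 0.05, a black tick at the list median and a dashed line at the median of all tested genes (-0.03). The cholesterol synthesis and MHC class II lists lie mostly left of the line, with medians of -1.67 and -1.17, and the mitochondrially encoded list lies right of it, with a median of 0.98.

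Most transcripts of the mitochondrial genome rose. Of 13 tested messages of that genome 10 were higher and none lower (median 0.98, and 0.70 with library totals alone). The cytochrome b message mt-Cytb stood at 3231, 4454, 5035 and 4955 CPM in UPBIG and 1466, 2105, 2646 and 1655 in UPSMALL (1.17 ± 0.19, adjusted p = 0.000836), and mt-Nd2, a complex I subunit, at 900.2, 1198, 1691 and 1474 against 430.5, 587, 648 and 434. UPBIG replicate 1 was the lowest of its group for both. Some of these messages overlap, such as mt-Atp6 and mt-Atp8, so their reads are partly shared. Of 25 tested nuclear genes for the upkeep and expression of mitochondrial DNA none was higher and 1 was lower, against 3.22% and 2.49% of all genes. Counts this small do not set the list apart from all genes. The gene that fell was the polymerase Polg (-0.56 ± 0.16). Its call ended in 10 of the 12 fits without 1 library (adjusted p = 0.0573 to 0.118) and was kept without UPBIG replicate 2 and DOWN replicate 4. Of 32 tested genes of pyruvate entry and the tricarboxylic acid cycle 6 were higher and 1 lower, and the median was 0.14, or -0.14 with library totals alone. The pyruvate carrier Mpc1 rose by 0.65 ± 0.15 (0.39 with library totals alone, adjusted p = 0.0535) and Sdha, the succinate dehydrogenase flavoprotein, by 0.67 ± 0.10 (adjusted p = 0.000151). None of 30 tested glycolysis and hypoxia genes was higher and 2 were lower, near the 5.70% of all genes that were called. The 2 were Aldoc and Pfkfb4 (-0.72 ± 0.18 and -0.58 ± 0.15). Both calls ended without UPBIG replicate 3, UPSMALL replicate 1 or UPSMALL replicate 3. That of Aldoc also ended without UPBIG replicate 2 or 4, and that of Pfkfb4 without UPBIG replicate 1 (adjusted p = 0.0511 to 0.0956 over these fits). Epas1, the hypoxia-inducible factor 2 alpha gene, stood outside that list and rose from 45.5 ± 2.52 CPM to 98 ± 3.96 (SD, n = 4; 1.11 ± 0.13, adjusted p = 1.44e-05).

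Genes of resident and of monocyte-derived macrophages each changed in both directions. Of 37 tested resident genes 9 were higher and 3 lower, with a median of 0.19 that turned to -0.09 with library totals alone (6 higher and 8 lower there; 8 and 1 without the 2 libraries that stood apart). Ear2, a ribonuclease gene of resident cells, stood at 1740.1, 1499, 1409 and 1496 CPM in UPBIG and 791, 755, 997 and 897 in UPSMALL (0.84 ± 0.11, adjusted p = 9.27e-05), and its near copy Ear1 at 103, 95.9, 104 and 90.0 against 62.7, 43.6, 53.8 and 45.6; reads may be shared between them. Siglecf rose by 0.57 ± 0.16, a call that ended in 7 of the 12 fits without 1 library (all UPBIG replicates and UPSMALL replicates 1, 2 and 4; adjusted p = 0.0622 to 0.106), with library totals alone (0.30) and without the 2 libraries that stood apart (0.46, adjusted p = 0.179). Car4, a carbonic anhydrase gene counted among resident markers, went the other way, from 95.4, 107, 195 and 109.8 CPM in UPSMALL to 15.2, 8.49, 34.6 and 13.4 in UPBIG (-2.82 ± 0.43, adjusted p = 0.00345). Marco, a scavenger receptor of resident cells, was not called (32.2 ± 10.8 and 44.1 ± 13.9 CPM; adjusted p = 0.505). The factor Bhlhe41, which supports self-renewal of resident cells, rose by 0.56 ± 0.16, a call that ended without any library but UPSMALL replicate 4 (adjusted p = 0.0520 to 0.168).

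Of 33 tested genes of monocyte-derived macrophages 9 were lower and 2, Cd36 and the Fc receptor Fcgr4, were higher (median -0.48). Cx3cr1, the fractalkine receptor, stood at 0.935, 0.538, 1.11 and 2.18 CPM in UPBIG, 21.4, 12, 22.1 and 13.6 in UPSMALL and 31.8 ± 3.64 in DOWN (-3.87 ± 0.31, adjusted p = 2.90e-07). Ccr2, the receptor by which monocytes leave the marrow, stood at 9.41, 7.83, 8.2 and 14.2 CPM against 36.1, 45.6, 78.7 and 97.1 (-2.71 ± 0.30, adjusted p = 0.000134), and at 184 ± 13.7 in DOWN. For both genes the UPSMALL mean lay between those of UPBIG and DOWN. Fn1, fibronectin, stood at 235, 299, 327 and 268 CPM against 945, 1344, 1268 and 1586 (-2.19 ± 0.14, adjusted p = 1.67e-08). Tgfbi, a matrix protein gene, fell by 1.48 ± 0.13 and Csf1r, the macrophage colony-stimulating factor receptor, by 0.50 ± 0.09, from 159 to 181 CPM to 118 to 126. Itgam, an integrin of monocytes, stood at 15.5 ± 3.17 and 25.7 ± 4.12 CPM (SD, n = 4; -0.73 ± 0.22, adjusted p = 0.0583) and was called, among other settings, with library totals alone, with DESeq2, with no or a stricter low-count filter, in the fit of 8 libraries and when DOWN replicate 2 or 4 was dropped, at adjusted p = 0.00684 to 0.0449, or 0.002255 with no filter. In sorted bulk samples, fewer cells of a type and less transcript per cell cannot be told apart.

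Markers of the lipid-associated macrophages found in scars did not move as one. Of 29 tested, 6 were higher and 5 lower (median 0.37, and 0.11 with library totals alone), and without the 2 libraries that stood apart 4 and 3. Igf1, a growth factor gene, rose from 361, 419, 331 and 245 CPM to 650.4, 711, 719.9 and 802 (1.09 ± 0.14, adjusted p = 5.43e-05), while Arg1, arginase 1, fell from 121, 171, 69.5 and 222 to 30.8, 45.1, 15.4 and 18.2 (-2.41 ± 0.44, adjusted p = 0.00959; -2.20 and 0.0589 without the 2 libraries that stood apart). Gpnmb, a glycoprotein of lipid-laden macrophages, stood at 2872, 2649, 1929 and 1788 CPM against 1539, 1299, 657 and 656, with no overlap but a wide spread (1.15 ± 0.31, adjusted p = 0.0569). Among the alternatives it was called with DESeq2, with a stricter low-count filter and without UPSMALL replicate 1 (1.41, adjusted p = 0.0205). The receptor Trem2 (0.05 ± 0.12), osteopontin, Spp1 (-0.24 ± 0.19), and the tetraspanin Cd9 (0.36 ± 0.13) were not called (adjusted p = 0.890, 0.565 and 0.116). Spp1 was spread from 17588 to 38785 CPM in UPSMALL, and its sign turned without UPSMALL replicate 2 (0.04). Trem2 turned negative with library totals alone (-0.22) and without UPSMALL replicate 4 (-0.01), and Cd9 was called, among other settings, with DESeq2 and with no low-count filter (adjusted p = 0.0358 and 0.0300).

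MHC class II genes, which present peptides from outside the cell to CD4 T cells, were mostly lower. Of 18 tested, 10 were lower and none higher, with a median of -1.17. The alpha chain H2-Aa stood at 116, 146, 173 and 153 CPM in UPBIG and 324, 697, 896 and 566 in UPSMALL (-2.08 ± 0.27, adjusted p = 0.000554) and the beta chain H2-Ab1 at 200.4, 256, 247 and 187 against 653, 1460.1, 1437 and 697 (-2.25 ± 0.29). UPSMALL replicate 1 was the lowest of its group for both chains, and no UPSMALL library reached down to UPBIG. The DOWN libraries lay higher still, at 1271 to 2136 and 1849 to 2995 CPM. Ciita, the master activator of these genes, fell from 5.27 ± 1.72 CPM to 1.86 ± 0.691 (SD, n = 4; -1.5 ± 0.31, adjusted p = 0.00564), and H2-DMa, which helps load peptide, by 0.92 ± 0.14. Cd86, a costimulator, was not called (0.36 ± 0.17, adjusted p = 0.260), but passed without UPSMALL replicate 2 (0.56, adjusted p = 0.0370). Markers of dendritic cells, which also carry class II, were lower with them (5 of 19, median -1.57), and their part in this difference was not tested. The MHC class I list, which presents peptides from inside the cell, held 3 genes that were higher and none lower of 23 tested (median 0.11, and -0.16 with library totals alone), and 1 higher without the 2 libraries that stood apart. H2-T22, a non-classical class I gene, stood at 159, 190.2, 186 and 155 CPM against 79.5, 94.6, 75.1 and 62.2 (1.15 ± 0.13, adjusted p = 1.24e-05). The calls of H2-T23 and of B2m, the shared light chain, ended with library totals alone (0.36 and 0.35) and in 3 and 9 of the 12 fits without 1 library (adjusted p = 0.0556 to 0.127): UPBIG replicates 1 and 2 and UPSMALL replicate 3 for H2-T23, and all but UPSMALL replicate 2 and DOWN replicates 3 and 4 for B2m. Genes of the H2 family are alike in sequence, and reads may be shared among them.

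The promoters of 3 class II genes are shown for the Y box, CTGATTGG, one of the conserved boxes that Ciita acts through. Of the 10 class II list genes that fell, 6 had a promoter entry and 3 of them held CTGATTGG on either strand, against 4.70% of all symbols with a promoter and 8.05% of genes called lower. The same letters were in 5 of the 15 sterol synthesis genes that fell and had an entry. They were also in 2 of 10 hydrolases and 0 of 7 pump and sensing genes that rose, so they were not particular to class II. The lines give the same 220 bases relative to the start (GRCm38.p6), with matches in capitals: H2-Aa at chr17:34287804-34288023 on the minus strand, H2-Eb1 at chr17:34305667-34305886 and H2-Eb2 at chr17:34325475-34325694, both on the plus strand.
H2-Aa: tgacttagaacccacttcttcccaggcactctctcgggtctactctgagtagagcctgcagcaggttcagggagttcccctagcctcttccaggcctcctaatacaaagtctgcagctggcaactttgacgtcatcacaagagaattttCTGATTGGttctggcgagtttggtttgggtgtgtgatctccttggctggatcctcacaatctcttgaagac
H2-Eb1: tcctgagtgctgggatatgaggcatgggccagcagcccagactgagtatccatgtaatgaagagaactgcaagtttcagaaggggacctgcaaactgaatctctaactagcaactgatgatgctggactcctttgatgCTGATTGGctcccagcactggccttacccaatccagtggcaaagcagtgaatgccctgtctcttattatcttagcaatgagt
H2-Eb2: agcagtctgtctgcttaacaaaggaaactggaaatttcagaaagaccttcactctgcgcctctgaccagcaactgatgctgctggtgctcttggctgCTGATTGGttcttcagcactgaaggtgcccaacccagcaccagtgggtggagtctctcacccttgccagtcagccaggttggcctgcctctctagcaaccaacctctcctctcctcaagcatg
The box began 51, 62 and 103 bases before the annotated start. H2-Eb1 stood at 66.7, 58.8, 72.2 and 82.2 CPM in UPBIG against 194, 389.8, 443 and 279.7 in UPSMALL (-2.22 ± 0.22, adjusted p = 2.28e-05). H2-Eb2, a beta chain gene of low expression, was at 0 counts in UPBIG and 72 in UPSMALL as a whole, which makes it at least 17.5-fold lower if UPBIG is set to 3 counts in total. It was highest in UPSMALL replicate 4, at 1.69 CPM against 0.250 to 0.744 in the others, and its call ended with limma-voom and without the 2 libraries that stood apart (adjusted p = 0.0517 and 0.0599).

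**Figure D4:**
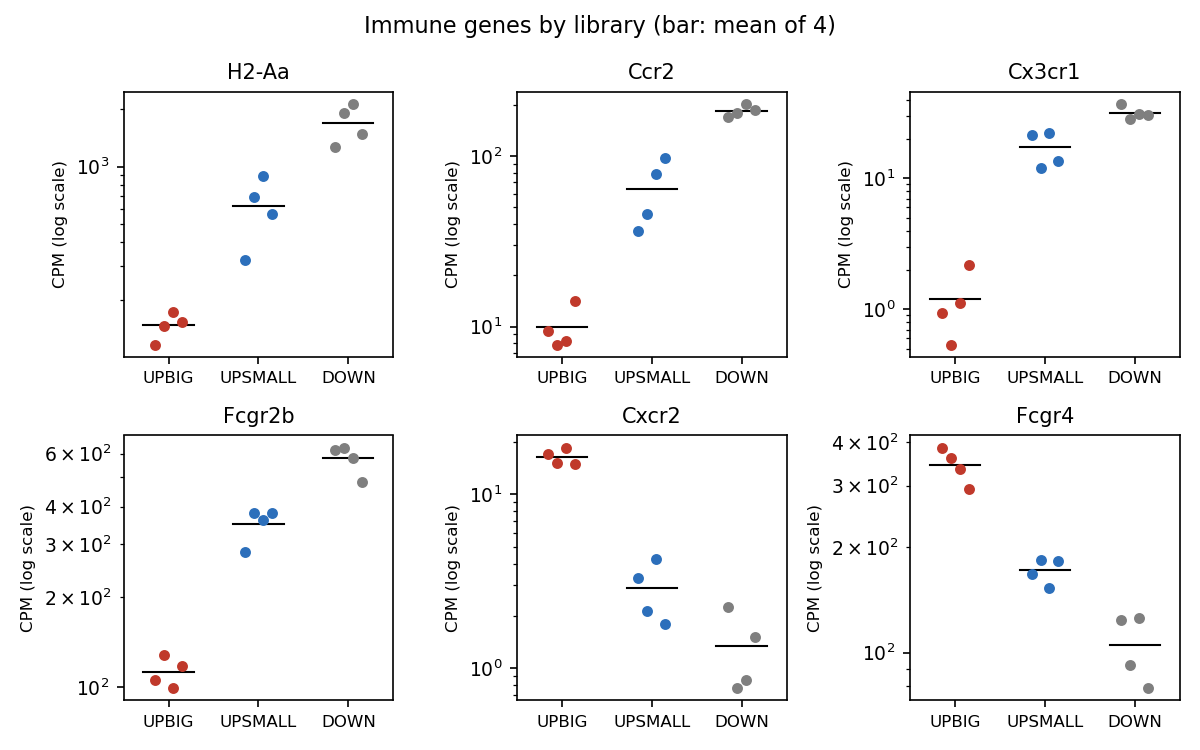
CPM of 6 immune genes in each library (y axis, log10 scale, 1 panel per gene), with 4 points per group for UPBIG, UPSMALL and DOWN and a bar at the group mean. H2-Aa, Ccr2, Cx3cr1 and Fcgr2b are lowest in UPBIG and have higher means in DOWN than in UPSMALL, while Cxcr2 and Fcgr4 are highest in UPBIG.

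Most chemokine and receptor genes that changed were lower. Of 33 tested chemokines and receptors 8 were lower and 2 higher, with a median of -0.69. The 2 that rose were the neighbouring genes Cxcr1 and Cxcr2, receptors of neutrophil-attracting chemokines. Cxcr2 stood at 17.1, 15.1, 18.6 and 15 CPM in UPBIG and 3.29, 2.15, 4.27 and 1.8 in UPSMALL (2.52 ± 0.32, adjusted p = 5.28e-05), and Cxcr1 at 46.6, 44.8, 42.6 and 31.1 against 8.92, 9.54, 7.43 and 3.53 (2.5 ± 0.39, adjusted p = 0.00169). Beside them the granulocyte receptor Csf3r, a marker of neutrophils, stood at 9.49 to 12.7 CPM and 9.29 to 14.2 (-0.05 ± 0.20, adjusted p = 0.933), with overlapping groups. S100a8, which neutrophils also express, was higher (375 ± 15.2 and 169 ± 25.9 CPM), and its partner S100a9 was at or below 5.38 CPM in all 8 libraries. Of the 7 tested neutrophil markers Cxcr2 and S100a8 were higher and 2 were lower, the collagenase Mmp8, at 5.98 to 12.7 against 18.7 to 23.8 CPM (-1.07 ± 0.19, adjusted p = 0.00172), and the decoy receptor Il1r2 (-3.15 ± 0.86, adjusted p = 0.0406). The call of Il1r2 ended with limma-voom (adjusted p = 0.270), without the 2 libraries that stood apart (0.222) and without any library but UPBIG replicate 3, UPSMALL replicate 1 and DOWN replicates 1 and 4 (0.0529 to 0.123). Of the granule genes, Ltf had 159 counts over UPBIG and 247 over UPSMALL, Mpo 0 and 1, and Camp 0 in both. Among the falls was the T cell chemokine Ccl17, at 5.17, 4.54, 3.46 and 7.09 against 32.3, 27.4, 36.8 and 60.7 (-2.96 ± 0.34, adjusted p = 0.000128).

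Fc receptors for IgG moved in both directions. Fcgr2b, the inhibitory receptor, stood at 106, 128, 99.3 and 117 CPM in UPBIG against 282, 379.6, 360.2 and 381 in UPSMALL (-1.64 ± 0.13, adjusted p = 1.18e-07), and the activating receptor Fcgr4 at 386, 361, 335 and 293 against 168, 184, 153 and 183 (1.0 ± 0.14, adjusted p = 0.000138). The other activating receptors Fcgr1 and Fcgr3 were not called, at -0.03 ± 0.12 and 0.05 ± 0.14, values whose sign varied with the setting. Of 29 tested complement and Fc receptor genes 6 were lower and 2 higher (median -0.21). Of 33 pattern receptors and inflammasome genes 4 were lower and none higher, against 2.49% and 3.22% of all genes. Among the 4 were the lectin Clec4n (-0.81 ± 0.16) and Tlr2, the receptor of bacterial lipoproteins (-0.67 ± 0.15). Of 26 inhibitory receptors 5 were lower and 4 higher: the lectin Clec4a2 fell by 1.05 ± 0.17, and Ly9, a receptor of the SLAM family, rose by 1.2 ± 0.27. With library totals alone 12 were lower and 1 higher, and without the 2 libraries that stood apart 5 and 1.

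Further single genes stood out. Cd200, a surface ligand that quiets myeloid cells, stood at 54.2, 69.9, 70.5 and 57.4 CPM in UPBIG and 19.9, 17.9, 19.3 and 19.8 in UPSMALL (1.71 ± 0.20, adjusted p = 1.84e-05). Il18bp, a decoy that binds interleukin 18, stood at 166, 192, 146 and 137 against 37.7, 75.4, 25.8 and 25.4 (1.96 ± 0.37, adjusted p = 0.00982; 0.0672 without the 2 libraries that stood apart). S100 genes went both ways: S100a1 rose from 829 to 1167 CPM to 2421 to 2563 (1.33 ± 0.12), and S100a4, which marks motile cells, fell from 86.5, 59.9, 86.5 and 266 to 16.9, 12.1, 24.9 and 12.6, by 2.90 ± 0.48 on the log2 scale and by 2.21 without UPSMALL replicate 4. Cdh1, E-cadherin, stood at 1.93, 1.55, 1.99 and 1.77 CPM against 7.76, 6.9, 6.27 and 17.6 (-2.41 ± 0.36, adjusted p = 0.000237), and Itgb7, a gut-homing integrin chain, at 0.0623, 0.359, 0.41 and 0.136 against 1.22, 2.5, 1.96 and 1.54. Cish and Socs2, feedback inhibitors that STAT5 induces downstream of GM-CSF, fell by 1.54 ± 0.31 and 0.95 ± 0.16. Sipa1l1, a GTPase-activating protein, rose from 5.37 ± 1.41 CPM to 29.3 ± 6.25 (SD, n = 4; 2.45 ± 0.21, adjusted p = 4.72e-07), and Pcyox1, which breaks down prenylated cysteine, from 60.1 ± 7.28 to 200.2 ± 14.9 (1.74 ± 0.12).

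Lrrc14b, a leucine-rich repeat gene, showed the largest rise. It drew 2888 counts from the 4 UPBIG libraries and 5 from UPSMALL, which is 793-fold after scaling for depth (interval 339 to 2443 at 95% for counting), and 0 in DOWN. The UPBIG libraries stood at 55.8, 35.7, 46.6 and 40.9 CPM and UPSMALL replicates 1 and 4 at 0. The gene lies in mm10 at chromosome 13, 74359578 to 74364005, within Ccdc127 on the other strand, which stood at 33.3 ± 6.77 and 20.4 ± 4.03 CPM (adjusted p = 0.0667; called with DESeq2, with limma-voom and without UPBIG replicate 1 or UPSMALL replicate 4, among others). The fitted log2 fold change of Lrrc14b, 9.47, became 10.25 without UPSMALL replicate 3. At the other end, 9 called genes had 3 counts or fewer over the UPBIG libraries and none over UPSMALL. Besides H2-Eb2 they included Hdac7, a histone deacetylase gene, with 0 counts against 34 (at least 8.26-fold lower; the call ended without any library but UPSMALL replicates 3 and 4, adjusted p = 0.0521 to 0.133), and Flt3, a receptor of dendritic cells, with 1 against 80, a ratio of 58.3 (10.2 to 2331; the call ended with limma-voom and without the 2 libraries that stood apart). Intervals and floors cover counting error only, because amplified reads with no molecular tags can come from the same molecule.

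Most markers of other cells in the lavage were low but not absent. Among the more abundant was Cd2 of the T and NK cell list, at 78.8 to 124.9 CPM in UPBIG and 33.8 to 70.2 in UPSMALL. Lyz1 of the alveolar type 2 list stood at 35.3 to 85.7 and 18.8 to 33.3 CPM. Neither gene overlapped between the groups, and neither was called. Of 19 tested dendritic cell markers 5 were lower in UPBIG and none higher, with a median of -1.57, among them Ccl17, Flt3 and Dpp4, a peptidase with 1 count against 42 (ratio 30.6, 5.20 to 1237; the call ended without any of UPBIG replicates 2 to 4 and UPSMALL replicates 1 and 3, adjusted p = 0.0601 to 0.0720, and with limma-voom, -3.47, adjusted p = 0.122). Without the 2 libraries that stood apart 2 were lower, 2 were called without UPBIG replicate 2 or UPSMALL replicate 1 or 3, and with library totals alone 8 were. The summed level of all 22 markers was 150.8 to 227.6 CPM in UPBIG and 195.7 to 257.7 in UPSMALL, most of it from Bst2, an interferon-induced gene that was not called (149.9 ± 31.5 and 129 ± 37.9 CPM; 0.22 ± 0.18, but -0.04 with library totals alone and -0.08 without the 2 libraries that stood apart). Without Bst2 the sum was 34.5 to 40.5 CPM in UPBIG, 74.3 to 137.6 in UPSMALL and 123.2 to 251.4 in DOWN, so UPBIG lay below both. Of the 19 tested markers 16 had a log2 fold change below 0. The 3 above it, none of them called, were Bst2 and the markers of one dendritic lineage, Clec9a and Xcr1, with 132 and 32 counts over UPBIG and 78 and 25 over UPSMALL. Of 20 tested T and NK cell markers 1 was higher, Cd4, which macrophages can also express (1.93, 2.81, 9.37 and 3.75 CPM against 1.43, 0.60, 0.534 and 0.661; 2.47 ± 0.52, adjusted p = 0.00564, and 1.81 with 0.0528 without UPBIG replicate 3), and the T cell receptor subunit Cd3e had 8 counts over each group. No B cell, stromal, eosinophil or erythroid marker was called, with 8, 2, 2 and 1 tested. Of 6 tested alveolar type 2 markers 1 was lower, Napsa, an aspartic protease that macrophages can also express (-1.25 ± 0.19). The surfactant gene Sftpc was at 746 counts in UPBIG as a whole, at up to 42.7 CPM in 1 library, and 31 over UPSMALL, and was not called. Of 13 tested airway and alveolar type 1 markers none was higher and 1 was lower, Pdpn, podoplanin (-0.77 ± 0.21, adjusted p = 0.0342), with a median of -0.72 that became 0.11 without UPSMALL replicate 4. The call of Pdpn ended in the fit of 8 libraries (adjusted p = 0.0641), without the 2 libraries that stood apart (-0.55) and without UPBIG replicate 1, 2 or 4 or UPSMALL replicate 1 or 4 (0.0830 to 0.124). Reg3g, an antimicrobial lectin gene of airway cells, stood at 18.6, 45.1, 19 and 35.1 CPM against 16.5, 75.3, 51.1 and 223 (adjusted p = 0.244), and Scgb1a1, the club cell secretoglobin, stood at 13, 212, 18.3 and 17.1 CPM against 7.44, 16.2, 8.9 and 16.5 (adjusted p = 0.207), with UPBIG replicate 2 far above the rest for Scgb1a1.

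**Figure D5:**
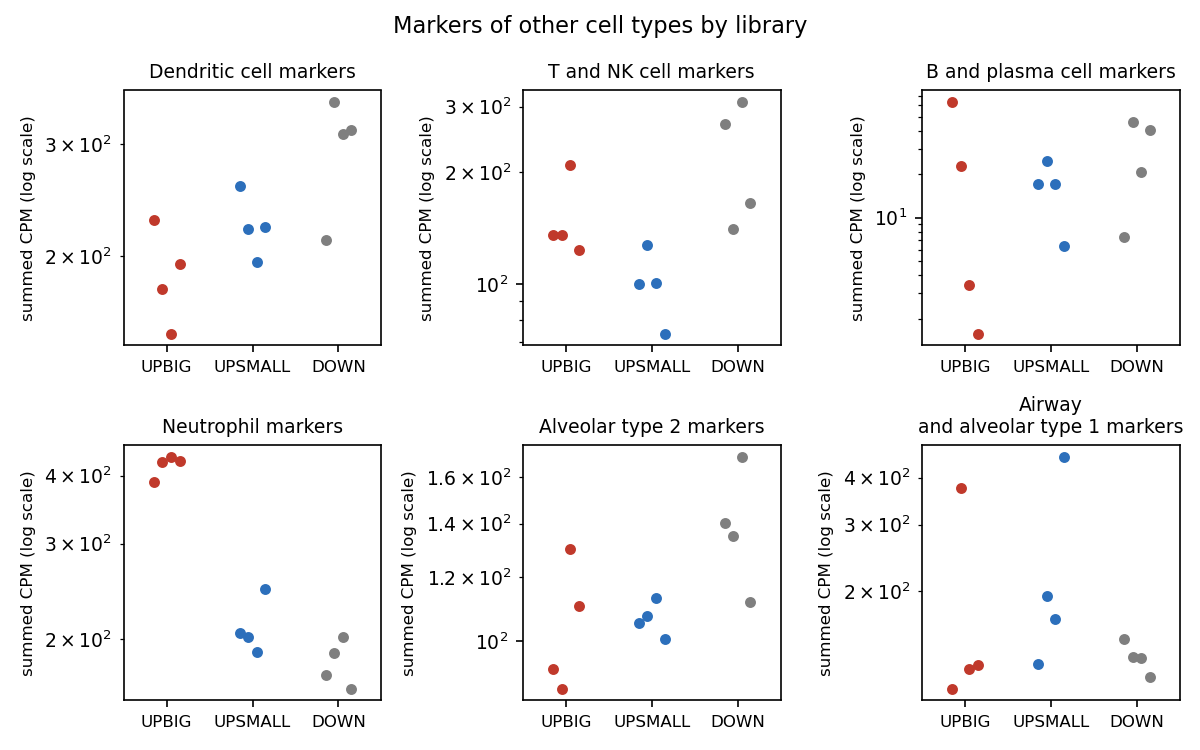
Summed CPM of the markers of 6 other cell types in each of the 12 libraries (y axis, log10 scale), with 1 panel per cell type and 4 points per group. UPBIG and UPSMALL overlap for dendritic cells, where Bst2 gives most of the sum and the levels do not overlap without it, and for the airway list, where UPBIG replicate 2 reaches 374.8 CPM and UPSMALL replicate 4 reaches 454.0 CPM, and do not overlap for the neutrophil list, which contains Cxcr2 and S100a8.

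Among the stress and growth lists, 1 of 38 proliferation genes and 5 of 29 p53 target genes were called, against 5.70% of all genes. Of the 38 tested proliferation genes none was higher and 1 was lower, the chromatin gene Hmgb2 (-0.73 ± 0.18). Its call ended without UPBIG replicate 2 or 4 or UPSMALL replicate 4 (adjusted p = 0.0663 to 0.0692). The median of the list was -0.36, against -0.03 over all genes, and -0.64 against -0.31 with library totals alone. Its summed level was 658.6 to 820.4 CPM in UPBIG and 844.9 to 1029 in UPSMALL, without overlap, and 460.9 to 940.1 in DOWN. The cycling marker Mki67 stood at 18, 16, 29.1 and 21.1 CPM against 24.6, 24.2, 30.7 and 38.6 (-0.49 ± 0.28, adjusted p = 0.405). The 5 called p53 target and apoptosis genes were higher, against 3.22% of all genes, with Phlda3, an inhibitor of the kinase AKT, at 54.1, 38.6, 30.9 and 50.9 against 30.3, 15.3, 25.7 and 12.4 (1.06 ± 0.26, adjusted p = 0.0204), which did not pass once UPBIG replicate 1 or 4 or UPSMALL replicate 2 was left out (0.0593 to 0.0634). The median of that list was 0.17, and -0.11 with library totals alone, and without the 2 libraries that stood apart 3 were higher and 1 lower. Of 25 tested genes of the unfolded protein response 3 were higher and none lower, and 0 or 1 was called without UPBIG replicate 2 or 3 or UPSMALL replicate 3 or 4. Of 45 interferon response genes 4 were lower and none higher (median -0.07), against 2.49% of all genes called lower, and of 30 NF-kB and cytokine genes 3 were lower and 2 higher (median -0.33; 0 and 1 without the 2 libraries that stood apart).

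Within each group the spread was small for most genes, with a median SD of 0.22 on the log2 scale in both. Among the widest spreads were those of immediate early genes, and 1 library of each group was low. Fos stood at 217, 101, 187 and 21.3 CPM in UPBIG and 238, 177, 54 and 262 in UPSMALL, and Fosb at 8.85, 6.99, 16.1 and 0 and 16.7, 11.2, 0.89 and 15.6. UPBIG replicate 4 and UPSMALL replicate 3 were the lowest of their groups for both, and neither gene was called (adjusted p = 0.825 and 0.893).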

How the data were processed

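RNA was measured in 12 libraries of sorted mouse alveolar macrophages, 4 each titled UPBIG, UPSMALL and DOWN. Per the labels' protocols, cells were lysed directly, and full-length polyadenylated RNA was amplified and made into libraries with commercial kits. Per the submitters' processing notes, the authors used STAR, RSEM and mm10. For versions, annotation release and strand setting: not given in the sources used here. The deposited values are expected counts from RSEM, which share reads between similar genes by estimate, so paralogs and overlapping genes are uncertain. Groups were taken from the sample titles.

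The expected counts were rounded to whole numbers and fitted with edgeR 4.0.16 (R 4.3.3; quasi-likelihood test, robust, TMM scaling, filterByExpr) over all 12 libraries, and UPBIG was contrasted with UPSMALL. Adjusted p-values are Benjamini-Hochberg over the 12625 genes tested, with a threshold of 0.05, and CPM are TMM-scaled. The SE of a log2 fold change was derived from the test, as its size divided by the square root of the F statistic. The fit was tested on simulated data. Alternatives were DESeq2 1.42.0 and its size factors, library totals alone, limma-voom (limma 3.58.1), other low-count filters, a minimum fold of 1.5, the 8 UP libraries alone, a replicate block, and each library left out. Leaving out both libraries that stood apart was chosen after seeing the data. Counting intervals are at 95%.

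The comparison and the gene lists were chosen with earlier results of these data known. The rule for named genes took the 25 largest rises and falls at a mean of at least 3 log2 CPM with no overlap, the 10 smallest p in each direction, up to 4 called members per list and direction with the smallest p, up to 2 members per list not called, genes with 3 counts or fewer over a group, the 5 genes of widest spread per group, and a fixed set of markers. Acat2, Ccdc127, Cd3e, Ciita, Clec9a, Ctsb, Ear1, Epas1, Fcgr1, Fos, Gclm, Gramd1b, Hadha, Hmgcs1, Hmox1, Marco, Nr1h3, Rragc, S100a9, Scap, Sftpc, Srebf1, Xcr1, mt-Atp8 and mt-Nd2 fall outside it and were chosen after their values were seen. A few genes within the rule are not reported here.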

Additional observations from a re-analysis of the deposited data

Results flagged for a closer look

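Dixon's test of the gap over the range was run on the groups of 4 libraries of each gene named above except Cd2 and Lyz1. It was also run on those of the 4 measures per library. Of these 306 groups 15, all of them of genes, held 1 library far from the other 3. Chance flags about 1 in 20 groups, so a count of this size carries no weight by itself. UPSMALL replicate 4, which also stood apart over all genes, was the library in 7 of the 15.

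In UPSMALL replicate 4, Cdh1 stood at 17.6 CPM against 6.27 to 7.76 in the other 3 libraries, S100a4 at 266.1 against 59.9 to 86.5, Tgfbi at 667 against 453 to 484 and Flt3 at 2.28 against 0.178 to 0.531. In the same library Gstm1 stood at 412 CPM against 763 to 812, Mcoln3 at 64.0 against 84.2 to 87.6 and Cat at 64.9 against 74.7 to 76.4. In UPSMALL replicate 3, Car4 stood at 194.8 CPM against 95.4 to 109.8 and Cpt1a at 88.4 against 75.1 to 76.5. Cd4 stood at 1.43 CPM in UPSMALL replicate 1 against 0.534 to 0.661.

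In UPBIG, Scgb1a1 stood at 212.4 CPM in replicate 2 against 13.0 to 18.3, and Sftpc at 42.7 in replicate 3 against 0 to 1.02. Pcyt2 stood at 8.04 CPM in UPBIG replicate 1 against 10.9 to 11.4. The only count of Dpp4 in UPBIG lay in replicate 1 (0.0623 CPM) and the only count of Flt3 in replicate 3 (0.0586 CPM).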

How the results depend on the processing

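Library totals alone gave 1622 called genes, 189 higher and 1433 lower, and a minimum fold of 1.5 gave 143, 64 higher and 79 lower. Of 114 called genes named above, 52 were not called at that minimum fold, which the sentences on single genes leave out. DESeq2 called 610 higher, and leaving out the low-count filter gave 473 lower. Leaving out 1 library at a time gave 500 to 762 called genes, 282 to 444 higher and 218 to 318 lower. Values whose sign turned belonged to genes that were not called or to list medians, and the cause was not tested. With library totals alone, the log2 fold changes of opposite sign were Apoe -0.21, Bst2 -0.0397, Cpt1a -0.13, Fcgr3 -0.21, Pparg -0.0041, Scap -0.22, Srebf1 -0.20 and Trem2 -0.22. With library totals alone, the medians of opposite sign were Peroxisome -0.13, Pyruvate entry and TCA cycle -0.14, Neutral lipid storage and release -0.0206, Lysosomal hydrolases and cathepsins -0.0556, Iron and heme -0.007, NRF2 antioxidant genes -0.0737, p53 targets and apoptosis -0.11, Resident alveolar macrophage genes -0.0854 and MHC class I presentation -0.16. With limma-voom, the log2 fold changes of opposite sign were Apoe -0.0341, Fcgr3 -0.0114 and Xcr1 -0.19. Without the 2 libraries that stood apart, the log2 fold changes of opposite sign were Apoe -0.26, Bst2 -0.0752, Cidec -0.15, Fcgr3 -0.0909, Ltf 0.24, Trem2 -0.0638 and Xcr1 -0.19. Over the fits without 1 library, log2 fold changes that turned sign ranged from -0.21 to 0.20 for Apoe, from -0.15 to 1.87 for Cd3e, from -0.14 to 0.0683 for Csf3r, from -0.10 to 0.0586 for Fcgr1, from -0.0413 to 0.15 for Fcgr3, from -1.07 to 0.096 for Ltf, from -0.0161 to 0.15 for Scap, from -0.12 to 5.56 for Sftpc, from -0.37 to 0.0397 for Spp1, from -0.11 to 0.27 for Srebf1 and from -0.0105 to 0.12 for Trem2. Over the fits without 1 library, list medians that turned sign ranged from -0.89 to 0.11 for Airway and alveolar type 1 markers. The replicate numbers were not shown to pair the samples: deviations of UPBIG and UPSMALL libraries of the same number correlated at 0.143, 0.154, -0.029 and 0.013, and not every library correlated best with its own number. With the replicate block 585 genes were higher and 440 lower, and among the called genes named above only the calls of Hdac7 and Il1r2 ended (adjusted p = 0.0717 and 0.0887), while Gpnmb (1.23, adjusted p = 2.35e-06), Ctsb (0.70, 0.000379), Itgam (-0.74, 0.0132), Cd9 (0.37, 0.0228) and Ccdc127 (0.69, 0.0382) were called there and not without the block. Low counts limit Flt3, Dpp4, Hdac7 and H2-Eb2, which had 0 or 1 counts over UPBIG.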
